A study of Mus musculus with 6 samples.

Results

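The Kruppel-like factors described here are 10 genes, taken by symbol from the 24505 rows of the deposited expression table: Klf2, Klf3, Klf4, Klf5, Klf6, Klf7, Klf9, Klf10, Klf11 and Klf13. All 10 were found, and all 10 passed the filter on low values. RNA-seq had been done on interstitial cells of the mouse fetal testis, called W-EGFP by the submitters, from FLE-EGFP animals at E16.5. In these mice a fetal Leydig enhancer drives the fluorescent protein EGFP, and the letter W is not explained by the labels. The cells, 10000 a sample, were held for 1 hour in 0.5 µM SAG, an agonist of the Hedgehog signal transducer Smoothened, or in its vehicle DMSO, with 3 libraries a group. The labels name no strain and no number of animals, and both groups share the EGFP transgene. The comparison asks which transcripts differ when Smoothened is activated.

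Kruppel-like factors are DNA-binding proteins with a cluster of zinc fingers near the C-terminal end, and they recognise GC-rich sites and CACCC elements. Their N-terminal parts differ and recruit different partners. Klf3 binds the corepressor CtBP. Klf9, Klf10, Klf11 and Klf13 bind the corepressor Sin3A, and Klf2, Klf4, Klf5, Klf6 and Klf7 are better known as activators or as factors that can do both. In mesenchymal cells and smooth muscle, members of the family are known for balancing proliferation against differentiation, and several are early response genes whose transcripts turn over fast.

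The family divided with SAG. Klf7, Klf3, Klf6 and Klf10 fell, Klf13 rose by a small margin, and Klf2, Klf4, Klf5, Klf9 and Klf11 did not pass the test. A call here is a Benjamini-Hochberg adjusted p under 0.05 in limma, fitted on the whole table. So 4 of 10 members were lower and 1 was higher, where 16.6% of the 12550 genes tested were lower and 12.9% higher. The median log2 fold change of the 10 was -0.28, against -0.03 over all tested genes. By role, 2 of the 5 activators fell, the CtBP-binding Klf3 fell, and among the 4 Sin3A-binding members 1 fell and 1 rose. In bulk RNA, fewer cells that express a gene and less of its RNA per cell cannot be told apart.

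Values are given as signal, the deposited CPM with the authors' scaling between libraries inside. Errors after ± are SD over n = 3 libraries. A log2 fold change compares log2(signal + 1) with SAG to that with DMSO and so comes out too small for low genes, whereas a plain fold divides one mean signal by the other. Depth was 18486396 to 25491259 reads per DMSO library but 7694479 to 8804335 per SAG library, so low members are less precise in SAG. Spike-in RNA held 0 reads in each DMSO library and 54 to 1205 in the SAG libraries. Both differences coincide with the treatment. For the members, an effect of SAG and a difference in how the libraries were made therefore cannot be told apart. SAG replicate 3 stood apart, as Rn45s, which holds ribosomal RNA, took 1.67% of its reads and 0.326% to 0.360% of those of any other library. Results that rest on it are given with and without it. The treatment could be read from its targets, as Gli1, the factor Hedgehog induces, went from 0.625 ± 0.270 to 36.6 ± 8.46, and Ptch1, the receptor, from 13.7 ± 2.28 to 39.6 ± 11.6.

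Promoter sequence is shown for 4 of the 5 members that passed the test, to set the DNA before the RefSeq start of genes that fell beside that of the gene that rose. The RefSeq promoter table (GRCm38.p6), whose windows run from 250 bases before the transcription start to 50 after it, matched 8 of the 10 members, all but Klf5 and Klf10. Each stretch below is the part of the bases before the RefSeq start that lies outside the exons GENCODE M21 gives that gene, read 5′ to 3′ on the strand of the gene. Capitals mark CACCC and GGGCGG, the short elements this family and its Sp relatives are known to bind, on either strand (GGGTG and CCGCCC), and they can overlap. The Klf7 stretch lies before the RefSeq start but inside the gene span of GENCODE, which begins farther upstream, so it is not upstream of the gene in that annotation. The Klf7 stretch is chr1:64121492-64121639 on the minus strand, Klf3 is chr5:64803271-64803387 on the plus strand, Klf6 is chr13:5861239-5861481 on the plus strand and Klf13 is chr7:63938916-63939165 on the minus strand.
Klf7: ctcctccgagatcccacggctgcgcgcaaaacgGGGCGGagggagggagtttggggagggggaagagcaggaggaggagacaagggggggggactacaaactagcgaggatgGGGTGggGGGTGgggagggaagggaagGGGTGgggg
Klf3: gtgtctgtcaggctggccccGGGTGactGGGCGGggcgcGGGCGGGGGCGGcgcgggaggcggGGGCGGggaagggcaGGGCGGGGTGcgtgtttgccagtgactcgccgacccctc
Klf6: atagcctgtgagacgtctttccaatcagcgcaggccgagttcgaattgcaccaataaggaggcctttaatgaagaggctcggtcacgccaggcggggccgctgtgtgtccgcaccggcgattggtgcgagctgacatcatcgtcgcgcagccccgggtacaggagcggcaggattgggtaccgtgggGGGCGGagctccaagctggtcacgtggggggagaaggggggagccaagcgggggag
Klf13: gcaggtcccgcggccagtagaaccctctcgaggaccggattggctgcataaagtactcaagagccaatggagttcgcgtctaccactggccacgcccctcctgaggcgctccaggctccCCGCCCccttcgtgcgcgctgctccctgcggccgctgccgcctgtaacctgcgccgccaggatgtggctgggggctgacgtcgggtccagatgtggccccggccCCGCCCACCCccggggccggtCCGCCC

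The Klf3 stretch, the shortest at 117 bases, was the richest, with 5 matches to GGGCGG and 2 to CACCC and 79.5% G and C. In the 148 bases of Klf7 there were 3 matches to CACCC and 1 to GGGCGG. Klf6 had 1 GGGCGG and no CACCC in 243 bases, and Klf13 had 3 and 1 in 250. Over the whole windows, 7 of the 8 members held GGGCGG, Klf9 being the exception, and 5 held CACCC. Of all 32851 mouse windows in the same table, 35.7% held GGGCGG and 57.5% held CACCC. The Gli consensus GACCACCCA was in none of the 8, against 0.253% of all windows, and neither were the cAMP response element TGACGTCA (1.79% of windows) and the CArG box of serum response factor (1.63%). TGANTCA, a pattern looser than the AP-1 element in its middle base, was in 1 of the 8, Klf9, as TGAATCA, against 7.81%. Genes that fell and the gene that rose did not sort by these letters: matches to GGGCGG were in the windows of Klf3, Klf6, Klf7 and Klf13 alike. A match describes the letters and is not a bound site.

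The activator Klf7, known for its part in axon growth and in holding back fat cell differentiation, had the largest fold change of the 10. Its signal was 14.0, 14.3 and 15.7 in DMSO replicates 1 to 3 and 5.16, 9.005 and 2.57 in SAG replicates 1 to 3. The groups did not overlap. The median tested gene lay 0.0608 to 0.0627 from its group mean on the log2 scale in DMSO libraries and 0.120 to 0.197 in SAG. For Klf7 too, the SAG libraries spread far more widely than the DMSO libraries. The means were 14.7 ± 0.907 and 5.58 ± 3.24, a 2.64-fold fall (log2 fold change -1.38, SE 0.31, 95% interval -2.08 to -0.67; limma, Benjamini-Hochberg adjusted p = 0.0102). These rest on 339, 310 and 279 reads in DMSO and on 47, 85 and 20 reads with SAG. The exact Poisson interval of the SAG replicate 3 signal was 1.57 to 3.97. It overlapped that of replicate 1 (3.79 to 6.87) by little and lay below that of replicate 2 (7.19 to 11.1). Such intervals cover counting error only. Without SAG replicate 3 the log2 fold change was -0.998 (limma, Benjamini-Hochberg adjusted p = 6.7e-05). Klf7 was the only member called lower with each of the 6 libraries left out in turn, with adjusted p of at most 0.0462. Klf7 spans 64029447 to 64122282 of chromosome 1, minus strand (GRCm38, GENCODE M21), and 3196 of its 8131 exon bases are shared with the opposite-strand gene Gm26649. The library kit keeps strand, but the strand setting of the authors' counting is not given in the sources used here, so whether reads of this pair were told apart is unknown.

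Klf6, an activator found in most tissues and raised when liver stellate cells turn into myofibroblasts, was the member with the highest signal. It was at 204, 202 and 211 in DMSO and at 149, 127 and 167 with SAG. Every SAG library lay below every DMSO library. The mean went from 206 ± 5.05 to 148 ± 20.1, 1.39-fold lower (log2 fold change -0.48, SE 0.11; limma, Benjamini-Hochberg adjusted p = 0.0121). Leaving out DMSO replicate 1, 2 or 3 lost the call (adjusted p = 0.0564, 0.0519 and 0.0662), with log2 fold changes of -0.49, -0.50 and -0.46. Without SAG replicate 3 it was -0.58 (limma, Benjamini-Hochberg adjusted p = 7.4e-07). Klf6 spans 5861482 to 5870394 of chromosome 13 on the plus strand.

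Klf3, a repressor that works through CtBP and is known from red cells and fat, fell by a similar amount. Its signal was 48.4, 52.4 and 50.2 in DMSO and 34.9, 38.6 and 32.9 with SAG. The groups were well apart and each was tight. From 50.3 ± 2.03 to 35.5 ± 2.88 it was 1.42-fold lower (log2 fold change -0.50, SE 0.11; limma, Benjamini-Hochberg adjusted p = 0.00939). Its call was lost without DMSO replicate 2 (adjusted p = 0.0588) or DMSO replicate 3 (0.0513). Klf3 spans 64803388 to 64832901 of chromosome 5, plus strand, and shares 404 of 11243 exon bases with Gm20033 on the opposite strand.

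Klf10, first described as an early gene that TGF-beta induces in human bone cells, and a Sin3A-binding repressor, was the remaining member that fell. It was at 44.0, 40.1 and 38.0 in DMSO and at 29.1, 30.3 and 27.4 with SAG. No SAG value reached the lowest DMSO value. The means were 40.7 ± 3.05 and 28.9 ± 1.48, 1.41-fold lower (log2 fold change -0.48, SE 0.11; limma, Benjamini-Hochberg adjusted p = 0.0129). The call was lost without DMSO replicate 1 (adjusted p = 0.0805) or 2 (0.0585) and with scaling by library total alone (0.0580, log2 fold change -0.34). The gene is on chromosome 15, minus strand, at 38291463 to 38300706.

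Klf11, the closest relative of Klf10 and likewise a TGF-beta-inducible Sin3A partner, did not pass the test. Its signal was 8.41, 11.001 and 7.73 in DMSO and 12.7, 9.75 and 12.8 with SAG. The groups overlapped, since SAG replicate 2 lay under DMSO replicate 2. The log2 fold change was 0.35 with a 95% interval of -0.05 to 0.75 (limma, Benjamini-Hochberg adjusted p = 0.169), which includes both no change and a rise as large as that of Klf13. With 92 to 116 reads in a SAG library, Klf11 was among the less precisely measured members. Klf11 and Klf10 had 95% intervals that did not meet, as that of Klf10 ran from -0.73 to -0.22; the difference between these genes was not tested.

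Klf13, a Sin3A-binding factor known from T cells and the developing heart, was the only member called higher. It was at 106, 117 and 111 in DMSO and at 133, 145 and 131 with SAG. The groups did not overlap. The mean went from 111 ± 5.26 to 136 ± 7.41, 1.22-fold (log2 fold change 0.29, SE 0.10; limma, Benjamini-Hochberg adjusted p = 0.0474), just inside the threshold. Of the 19 other settings tried, 10 lost the call, among them leaving out DMSO replicate 1, 2 or 3 (adjusted p = 0.194, 0.113 and 0.164) or SAG replicate 1 or 2 (0.0675 and 0.0888). It was lost as well with limma without trend (0.0883), with limma robust (0.0503), with a replicate block (0.0907), with thinned DMSO reads (0.0663) and with length and GC trends removed (0.110). In every setting its log2 fold change was above 0, from 0.20 to 0.43. Klf13 lies at 63886351 to 63938915 on chromosome 7, minus strand.

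Klf9, induced by glucocorticoid and thyroid hormone in other tissues and the last of the Sin3A-binding members, was at 40.5, 45.4 and 45.1 in DMSO and at 53.9, 51.1 and 43.3 with SAG. SAG replicates 1 and 2 were above all DMSO libraries and SAG replicate 3 was not. The means were 43.7 ± 2.75 and 49.4 ± 5.51 (log2 fold change 0.17, 95% interval -0.10 to 0.44; limma, Benjamini-Hochberg adjusted p = 0.313). Without SAG replicate 3 it passed (log2 fold change 0.26, adjusted p = 0.0308). Klf9 lies on chromosome 19 at 23141226 to 23168134, plus strand.

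Klf2, which blood flow induces in endothelium and which keeps T cells quiet, gave the widest spread of the more abundant members. It was at 46.5, 44.5 and 44.0 in DMSO and at 52.0, 52.0 and 87.0 with SAG. Every SAG library was above the DMSO libraries, but SAG replicate 3 was 1.67 times the mean of the other SAG libraries. The mean of 45.0 ± 1.35 became 63.6 ± 20.2 (log2 fold change 0.45, 95% interval 0.03 to 0.87; limma, Benjamini-Hochberg adjusted p = 0.0980). Without that library the log2 fold change was 0.20 (adjusted p = 0.0806), and with length and GC trends removed it was 0.16 (0.433). Klf2 passed with scaling by library total (0.59, adjusted p = 0.0308) and in DESeq2 on recovered reads (0.54, Benjamini-Hochberg adjusted p = 0.0318). In SAG replicate 3 the summed signal of 10 endothelial markers, most of it Flt1 and Cdh5, was 71.7, the lowest of the 6 libraries, while Kdr (3.21) and Egfl7 (3.72) were at their highest there. The part of these markers in the Klf2 value was not tested. Klf2 lies on chromosome 8 at 72319033 to 72321656, plus strand.

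Klf4, a reprogramming factor that in vessel walls represses contractile smooth muscle genes, lay on the other side of the threshold by little. Its signal was 26.4, 28.5 and 28.0 in DMSO and 22.7, 20.3 and 11.9 with SAG. All SAG libraries were lower, and SAG replicate 3 was lowest by far. The means of 27.6 ± 1.10 and 18.3 ± 5.67 gave a log2 fold change of -0.61 (95% interval -1.08 to -0.14; limma, Benjamini-Hochberg adjusted p = 0.0529). It passed without SAG replicate 3 (-0.35, adjusted p = 0.0197), where the change was smaller and the spread much smaller, and without SAG replicate 1 (0.0320). A replicate block (0.0312), DESeq2 on recovered reads (0.0445) and removal of length and GC trends (0.0281) also gave a call. Klf4 lies on chromosome 4 at 55527143 to 55532466, minus strand.

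Klf5, known for driving proliferation of gut epithelium and injured smooth muscle, was at 11.1, 10.8 and 8.80 in DMSO and at 8.90, 9.85 and 10.02 with SAG. The SAG values fell inside the DMSO range. The log2 fold change was -0.079 with a 95% interval of -0.42 to 0.26 (limma, Benjamini-Hochberg adjusted p = 0.726), which includes a fall, but not a rise, as large as the change of Klf13. With scaling by library total its sign turned, to 0.050. Klf5 lies on chromosome 14 at 99298691 to 99315036, plus strand.

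**Figure D1:**
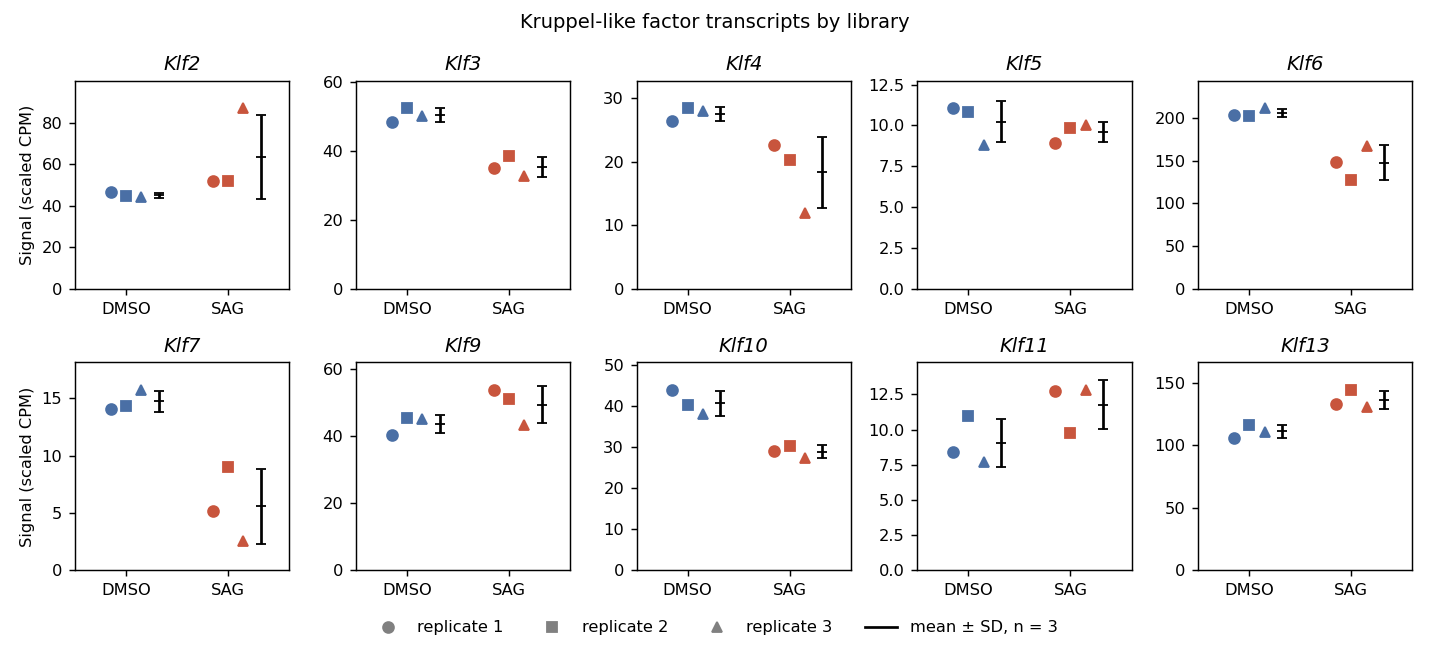
Signal (scaled CPM, y axes from 0) of each of the 10 genes in the 3 DMSO and 3 SAG libraries, 1 symbol per replicate number, with the mean and SD beside each group. The groups are apart for Klf3, Klf4, Klf6, Klf7 and Klf10 with SAG lower and for Klf2 and Klf13 with SAG higher, and SAG replicate 3 (triangle) lies away from the other SAG libraries for Klf2 at 87.0 and Klf4 at 11.9.

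Counted by overlap alone, 5 members (Klf3, Klf4, Klf6, Klf7 and Klf10) had every SAG library below every DMSO library and 2 (Klf2 and Klf13) had every SAG library above. Among all tested genes 26.8% were separated downward and 21.2% upward. The median absolute log2 fold change of the members was 0.46, against 0.30 over all tested genes. The fall of Klf7 was the outlying value, and the other 3 members called lower sat close together at -0.48 to -0.50. In this fit Klf3, Klf6 and Klf10 thus fell to about the same extent although Klf6 stood at 206 in DMSO and Klf10 at 40.7. With length and GC trends removed they were at -0.31, -0.38 and -0.43, and without SAG replicate 3 at -0.44, -0.58 and -0.44.

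**Figure D2:**
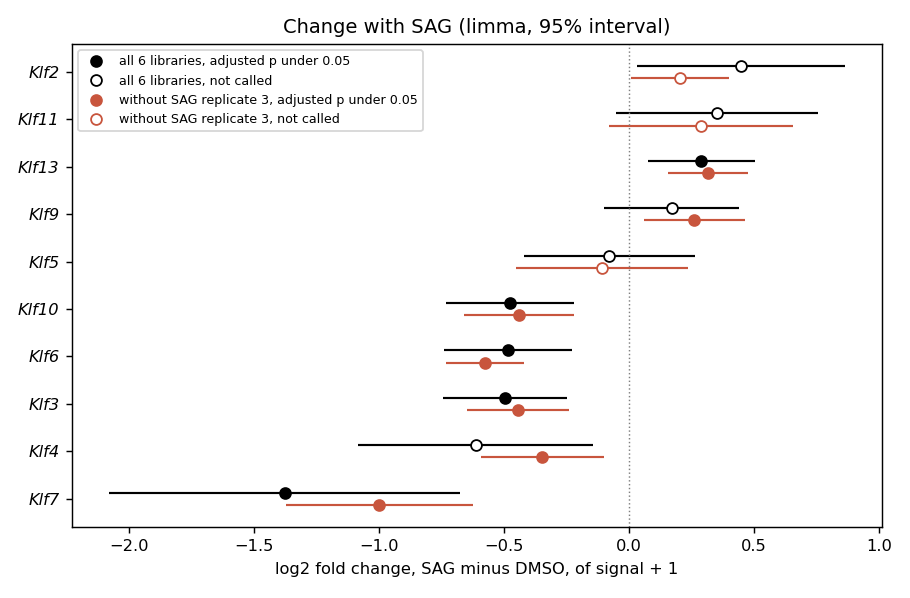
Log2 fold change of signal + 1 (x axis, SAG minus DMSO) of the 10 genes from limma with all 6 libraries (black) and without SAG replicate 3 (red), with 95% intervals; filled points have an adjusted p under 0.05. Klf7 stands lowest at -1.38, the intervals of Klf2 and Klf4 shrink without that library, and Klf4 and Klf9 become called.

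The balance of calls depended on the scaling. With each library scaled by its total alone, the median over all tested genes shifted to 0.10 on the log2 scale, from -0.03, and the calls over all genes went from 1625 higher and 2084 lower to 2477 higher and 1259 lower. The members called were then Klf2 and Klf13 higher (19.7% of all genes were) and Klf3, Klf6 and Klf7 lower (10% were). Without SAG replicate 3, Klf9 and Klf13 were higher and Klf3, Klf4, Klf6, Klf7 and Klf10 lower, beside 19.7% and 27% of all genes. Without SAG replicate 1, 5 members were lower, beside 15.6% of all genes, and without SAG replicate 2, 4 were, beside 15.2%, with none higher, beside 12.2% and 11.2%. With DMSO replicate 1, 2 or 3 left out, the members called lower were Klf3 and Klf7, Klf7 alone, and Klf7 and Klf10, beside 8.71%, 9.04% and 8.65% of all genes. None was called higher there by limma, beside 7.41%, 7.71% and 7.18%. On the recovered whole reads, edgeR's quasi-likelihood test called the same 5 members as limma in the same directions, where 14.5% of genes were lower and 15.2% higher. DESeq2 added Klf2 higher and Klf4 lower, for 2 higher beside 17% of genes and 5 lower beside 15.7%. In limma without trend, limma robust and with thinned DMSO reads 4 members were lower, beside 14.6%, 16.5% and 15.8% of genes, and with a replicate block 5 were, beside 15.7%. None was higher in these 4 settings, beside 12.9%, 12.9%, 12.5% and 12.3%.

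SAG replicate 3 differed from the other SAG libraries by gene length. Its log2(signal + 1), minus the mean of SAG replicates 1 and 2, had a median of 0.19 in the 1209 tested genes with the shortest exons and of -0.22 in the 1209 with the longest. Klf2, the shortest member at 1847 exon bases, was 0.73 higher in that library, and Klf7, at 8131 bases, was 1.14 lower. Length did not order the members: Klf4, at 3049 bases, was 0.80 lower and Klf3, the longest at 11243 bases, 0.15 lower. Klf2, Klf4, Klf6, Klf7 and Klf9 were each farther from 0 than either of these medians, Klf6 (0.28) and Klf9 (-0.27) by little. Medians leave out the scatter of single genes, so this cannot show whether a member departed from the length trend. With length and GC trends removed from every library, Klf3, Klf4, Klf6, Klf7 and Klf10 were called lower and none higher, beside 17.3% and 12.7% of all genes.

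**Figure D3:**
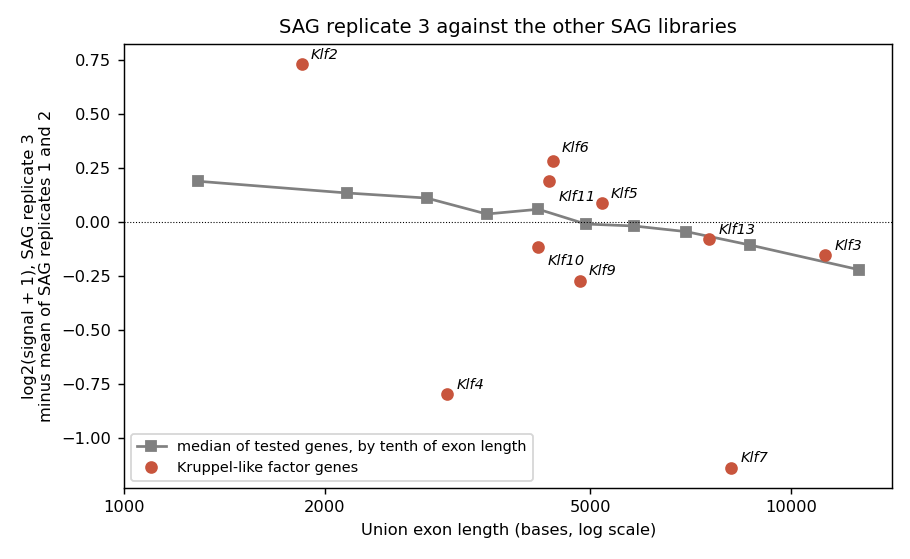
Log2(signal + 1) in SAG replicate 3 minus the mean of SAG replicates 1 and 2 (y axis) against union exon length in bases (log x axis), for the 10 genes (red) and as the median of tested genes in 10 bins of exon length (grey). The grey line goes from 0.19 to -0.22, while Klf2 lies at 0.73, Klf4 at -0.80 and Klf7 at -1.14.

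Levels between members were compared per kilobase of exon, using the union of all GENCODE exons, which understates genes with rare long isoforms. In DMSO Klf6 was highest at 46.8 ± 1.151 signal per kilobase, followed by Klf2 at 24.4 ± 0.731 and Klf13 at 14.8 ± 0.698. Each of these stood clear of the next in all libraries. Klf10 (9.74 ± 0.730), Klf9 (9.07 ± 0.571) and Klf4 (9.06 ± 0.362) overlapped in level. Klf3 followed at 4.48 ± 0.180, and Klf11 (2.08 ± 0.398), Klf5 (1.97 ± 0.239) and Klf7 (1.81 ± 0.112) formed a low group whose neighbours overlapped.

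With SAG the order of the means changed at the top. Klf2 reached 34.5 ± 10.9 signal per kilobase and Klf6 fell to 33.6 ± 4.57, and their libraries overlapped. Klf9 (10.3 ± 1.14) stood above Klf10 (6.92 ± 0.354) without overlap, and Klf10 overlapped Klf4 (6.02 ± 1.86). Klf7 was lowest at 0.686 ± 0.398 per kilobase and no longer overlapped Klf5 at 1.84 ± 0.116. Klf6 made up 36.8% to 38.8% of the summed signal per kilobase of the 10 genes in DMSO and 26.4% to 29.8% with SAG. Klf2 made up 19.2% to 20.4% in DMSO and 24.8%, 25.7% and 36.2% in SAG replicates 1 to 3. In SAG replicates 1 and 2 Klf6 still stood above Klf2, at 29.8% and 26.4%. Their change of order in the means thus rested on SAG replicate 3. Shares add up to a whole, so a fall of Klf6 alone raises the others. The sum itself was 123 to 125 in DMSO and 114, 109.5 and 130.1 in SAG replicates 1 to 3, which overlap.

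**Figure D4:**
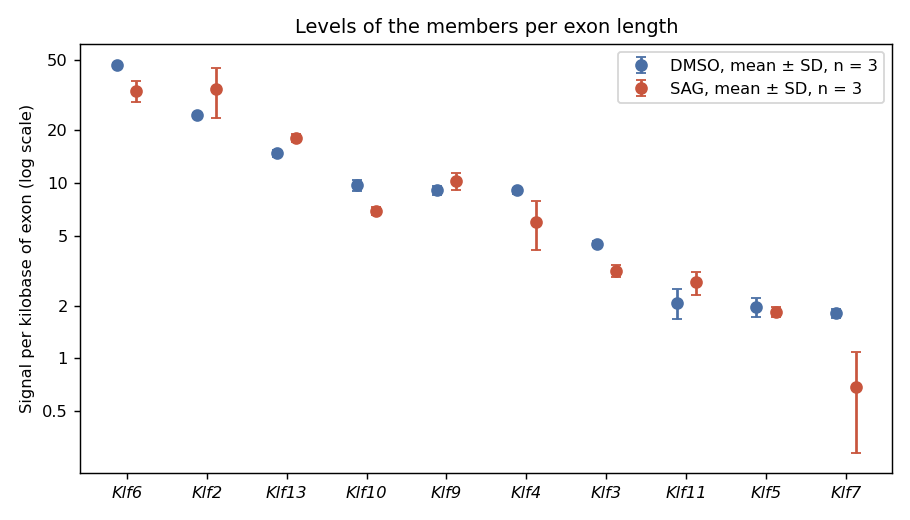
Signal per kilobase of exon (log y axis), mean and SD over n = 3 libraries, for the 10 genes in DMSO (blue) and SAG (red), ordered by the DMSO level. Klf6 leads in DMSO at 46.8, the means of Klf2 and Klf6 meet at 34.5 and 33.6 with SAG, and Klf7 drops from 1.81 to 0.686.

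The genes most like Klf7 over the 6 libraries, by Pearson's r of log2(signal + 1), were Cbl (a ubiquitin ligase of receptor kinases, r = 0.997), Piezo1 (a mechanosensitive channel, r = 0.997) and Lats2 (a Hippo pathway kinase, r = 0.996). They shared its order, with SAG replicate 3 lowest and SAG replicate 2 the highest of the SAG libraries, but not its size: Cbl went from 42.6 ± 1.42 to 24.9 ± 6.90, Piezo1 from 451 ± 11.996 to 319 ± 55.9 and Lats2 from 168 ± 0.991 to 134 ± 14.8. These are descriptions of 6 points that share libraries and depth, taken as the highest of all tested genes.

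Relatives outside the 10 were read from the same fit, which called 12.9% of all tested genes higher and 16.6% lower. Of 7 other Klf genes 4 passed the filter, and 1 rose and 1 fell. Klf15, a glucocorticoid-induced factor of liver, muscle and heart, rose from 0.846 ± 0.151 to 3.06 ± 0.235, 3.62-fold (log2 fold change 1.14, SE 0.21; limma, Benjamini-Hochberg adjusted p = 0.00352), and was called in every setting in which it passed the filter. Its level was low, as these values rest on 19, 22 and 13 reads in DMSO and on 30, 29 and 22 with SAG. Klf16, another Sin3A partner, went from 35.0 ± 0.427 to 25.5 ± 4.49 (adjusted p = 0.0367); its call was lost without any 1 of DMSO replicates 1, 2 and 3 (0.121, 0.119 and 0.112) or SAG replicates 1 and 2 (0.0898 and 0.0674). The Sp genes, which share the zinc fingers and the GC-box sites, gave no call among 4 tested, with Sp1 at 66.3 ± 2.39 and 61.7 ± 11.1 and Sp3 at 55.7 ± 0.924 and 50.3 ± 8.89. With 0 of the 4 Sp genes at an unadjusted p under 0.05 in limma, edgeR and DESeq2 called 0 as well.

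Partners of KLF proteins were mostly not called, where 12.9% of all tested genes were higher and 16.6% lower. Of 10 corepressor and coactivator genes 1 fell and 0 rose: Hdac1, a histone deacetylase of the Sin3A complex, went from 110.0 ± 2.58 to 89.5 ± 5.81 (limma, Benjamini-Hochberg adjusted p = 0.0457), a call lost without DMSO replicate 1, 2 or 3 (0.173, 0.152 and 0.138) or SAG replicate 1 (0.0732) and in edgeR (0.0771). Of 6 ubiquitin ligases 2 fell. Wwp1, which marks Klf2 and Klf5 for breakdown, went from 64.3 ± 1.63 to 42.2 ± 2.57 (limma, Benjamini-Hochberg adjusted p = 0.00292). Smurf1 went from 205 ± 14.4 to 125 ± 8.92 (0.00111). Without SAG replicate 3, 4 of the 6 fell, where 27% of all tested genes did.

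Upstream routes were mixed, where 12.9% of all tested genes were higher and 16.6% lower. In the ERK5 and MEF2 route that induces Klf2 and Klf4, 2 of 7 genes rose and 1 fell. Mapk7, which encodes ERK5, went from 32.9 ± 1.11 to 45.8 ± 4.77 (limma, Benjamini-Hochberg adjusted p = 0.0158), lost without DMSO replicate 1, 2 or 3 (0.0649, 0.0613 and 0.0816). Without each of these libraries none of the 7 passed. Of all genes 7.41%, 7.71% and 7.18% were then higher and 8.71%, 9.04% and 8.65% lower. Of 7 genes of the serum response factor route 1 fell, the ternary complex factor gene Elk3, from 89.3 ± 1.61 to 59.6 ± 11.9 (limma, Benjamini-Hochberg adjusted p = 0.0148). The count lower was 0 without DMSO replicate 1, 2 or 3, beside 8.71%, 9.04% and 8.65% of all genes. Without SAG replicates 2 and 3 it was 3 and 4, beside 15.2% and 27% of all genes. Of 18 immediate early genes 5 rose and 3 fell, where Fos rose 3.02-fold and Ier2 2.11-fold and Egr2 was 1.85-fold lower (limma, Benjamini-Hochberg adjusted p = 0.00166, 0.00442 and 0.00210). Leaving out single libraries gave 4 to 7 higher and 2 to 5 lower, where 7.18% to 19.7% and 8.65% to 27% of all genes were. The count lower was 2 without DMSO replicate 3, beside 8.65% of all genes, and 5 without SAG replicate 3, beside 27%. SAG replicate 3 held the highest Fos and Ier2 signal, and without it their log2 fold changes went from 1.37 to 1.13 and from 1.01 to 0.76, both still called.

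Genes that TGF-beta induces beside Klf10 fell: 6 of 9 tested were lower and 1, the inhibitory Smad gene Smad6, was higher, with a median log2 fold change of -0.75, and these counts held with each library left out in turn. Among them Ctgf, a matricellular protein, went from 3564 ± 131 to 2098 ± 147 (limma, Benjamini-Hochberg adjusted p = 7.9e-04). Klf10 fell as these 6 did, and Klf11 was not called. Over all tested genes 12.9% were called higher and 16.6% lower with all libraries, the shares to set beside each list in that fit. Glucocorticoid targets set beside Klf9 went both ways, with 2 of 7 higher and 1 lower, among them Cebpd from 47.6 ± 1.92 to 82.1 ± 22.0 (0.00931). Without SAG replicate 3 there were 3 higher and 3 lower, beside 19.7% and 27% of all genes. The log2 fold change of Cebpd then went from 0.74 to 0.54 and that of Tsc22d3 from 0.61 to 0.36. Without DMSO replicate 1, 2 or 3 there was 1 higher and 0 lower. Of all genes 7.41%, 7.71% and 7.18% were then higher and 8.71%, 9.04% and 8.65% lower. Without SAG replicate 1 there were 2 and 0, beside 12.2% and 15.6% of all genes. Without SAG replicate 2 there was 1 each, beside 11.2% and 15.2%. Of 6 vessel wall targets of Klf2 and Klf4, 2 rose and 1 fell. The fall, of S1pr1, was lost without DMSO replicate 1, 2 or 3 (limma, Benjamini-Hochberg adjusted p = 0.0776, 0.0523 and 0.0550), and the rise of Edn1 without DMSO replicate 2 or 3 or SAG replicate 1 (0.0925, 0.0638 and 0.0607). Plat, tissue plasminogen activator, rose 1.97-fold (0.00133), while Thbd, thrombomodulin, was at 590 ± 26.2 and 609 ± 20.6 (0.729).

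Cell type markers moved with the groups in some lists and not in others, where 12.9% of all tested genes were called higher and 16.6% lower. The summed signal of 10 interstitial markers was 619 to 639 in DMSO and 1178 to 1389 with SAG, with 7 higher and 1 lower, and that of 9 peritubular myoid and smooth muscle markers was 22919 to 23958 and 14476 to 16200, with 8 lower. Leaving out DMSO replicate 1, 2 or 3 or SAG replicate 1 left 5 lower, beside 8.71%, 9.04%, 8.65% and 15.6% of all genes. Endothelial markers summed to 125 to 129.5 in DMSO and 71.7 to 106 with SAG, mostly Flt1 and Cdh5, with 5 of 10 under the filter, Cldn5 at 0 and Flt1 lower. Sertoli markers summed to 44.9 to 49.5 and 41.0 to 45.1, macrophage markers to 2.32 to 3.42 and 1.17 to 3.73, erythroid markers to 0.226 to 0.508 and 0 to 0.424, and germ cell markers to 2.17 to 2.71 and 2.97 to 4.61. Few of these could be tested, as 5 of 8 Sertoli, 1 of 10 macrophage, 0 of 8 erythroid and 2 of 8 germ cell markers passed the filter. None of those tested was called by limma, edgeR or DESeq2 or had an unadjusted p under 0.05, though the macrophage marker Csf1r was lower without SAG replicate 1 (limma, Benjamini-Hochberg adjusted p = 0.0378). Surface epithelial markers summed to 17.3 to 32.01 and 12.7 to 14.9, with Krt8 and Krt18 lower, neither of them called without DMSO replicate 1 or 3 or SAG replicate 1. Fetal Leydig markers summed to 32.6 to 33.7 in DMSO and to 19.1 to 23.0 in SAG replicates 1 and 2, but to 116 in SAG replicate 3, the library in which Klf2 was highest and Klf4 and Klf7 lowest. Of the 3 tested, the steroid enzyme gene Hsd3b1 was called higher, from 0, 0.370 and 0.226 to 3.73, 2.01 and 30.8 (limma, Benjamini-Hochberg adjusted p = 0.0193). Its call was lost without DMSO replicate 1, 2 or 3 (0.0720, 0.0519 and 0.0602), and without SAG replicate 3 its log2 fold change went from 2.69 to 1.67 and Star was called lower. The part of these shifts, and of the 2.67 times greater depth of DMSO, in the changes of the Kruppel-like factors was not tested, apart from thinning the DMSO reads to the mean depth of SAG, which kept the calls of Klf3, Klf6, Klf7 and Klf10.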

How the data were processed

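Per the submitters' processing notes, the software was featureCounts 2.0.0 for counting, STAR, Trim Galore 0.6.4 and edgeR, whose version is given as 2.2.1, with the builds GRCm38 and mm10. The annotation and the strand setting are not given in the sources used here. What the authors deposited is a scaled signal, CPM with normalization factors inside; the table's name and columns carry "siRNA" and "siCnt", which the labels do not explain. In every column 100% of values were whole multiples of 1 step (tolerance 0.01), so reads could be recovered. The 92 spike-in rows (at most 0.0157% of reads) were left out.

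Log2(signal + 1) was fitted with limma 3.58.1 (eBayes with trend, R 4.3.3), with no term but group, for the 12550 genes whose mean signal reached 1, and p-values were adjusted over all of them. The step was tested on simulated counts. Whether replicates came from different cultures or animals is not stated, and p-values therefore cover only the spread between these libraries, which may be technical. The members and gene lists were chosen with earlier results of these data known. Named genes were the 10 members, Gli1 and Ptch1, for each list up to 3 genes by smallest p, and the 3 genes most like the member with the largest change; Sp1, Thbd, Smad6, Kdr, Egfl7 and Cldn5 were named after their values were seen. Markers are described mainly by sums. Alternatives were other pseudocounts, filters, scalings and limma settings, a replicate block, edgeR 4.0.16 and DESeq2 1.42.0 on recovered reads, and each library left out. Thinning DMSO reads and removing length and GC trends (96.3% of tested genes had both properties) were added after seeing the data. Exon lengths and coordinates are from GENCODE M21. An exact permutation test of 3 against 3 libraries cannot go below p = 0.1 and was not used. Of the genes picked from the lists by smallest p, the values of 1 are not reported here.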

Additional observations from a re-analysis of the deposited data

Results flagged for a closer look

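Spike-in RNA rows, which no comparison uses, held 111, 54 and 1205 reads in SAG replicates 1, 2 and 3 and 0 in each DMSO library.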

How the results depend on the processing

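Klf7 was called lower, and Klf11 was not called, in all 19 alternatives; no called member changed direction, and Klf5, not called, turned to 0.050 with scaling by library total. That scaling gave 2477 genes higher and 1259 lower, with 2 members higher. With each library left out in turn, 901 to 2463 genes were higher and 1086 to 3373 lower, and 0 to 2 members higher and 1 to 5 lower; the cause was not tested. No member was called higher (0) with limma without trend, limma robust, thinned DMSO reads or length and GC trends removed, beside 12.9%, 12.9%, 12.5% and 12.7% of all genes, and 2 were in DESeq2, beside 17%, so both counts are near the background. Deviations of same-numbered libraries from their group means had correlations of -0.0231, 0.0332 and -0.0001732. With 3 libraries a group, these cannot settle whether same-numbered libraries share a culture or animal. The fit with a replicate block called 0 members higher and 5 lower, with 1549 genes higher and 1976 lower. Genes of other lists that turned sign, none called with all libraries, ranged with single libraries left out from -0.42 to 0.074 (Sp2), -0.049 to 0.17 (Sycp3), -0.20 to 1.00 (Cyp11a1) and -1.01 to 0.028 (Star, called lower without SAG replicate 3). Sycp3 was at -0.061 with thinned reads, and Star at 0.0287 in edgeR and 0.0492 in DESeq2. Depth limits Klf5, Klf7 and Klf11 most, at 20 to 116 reads in a SAG library.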
